A study of Mus musculus with 4 samples.

Results

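Genes of the blood and lymphatic endothelium were examined in reconstituted ovaries (rOvaries) by RNA-seq. The set holds 36 genes chosen by name, out of the 54021 gene symbols counted, and all 36 were found. It comprises 7 ligands, 10 receptors, 7 junction or surface proteins, 3 secreted or vasoactive proteins, 3 transcription factors and 6 lymphatic or scavenger markers. The question was whether the vascular content of the grafts differed with INK128, an inhibitor of the kinase mTOR.

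The rOvaries formed under the kidney capsule of bilaterally ovariectomized recipients, from primordial germ cells aggregated with somatic cells of fetal gonads, female by the methods of the study. Donor cells carried actin-GFP on the C57BL/6 background. The recipients were second-generation telomerase-deficient mice (G2 Terc-/-) on the same background in both groups, young females of 10 weeks by the methods of the study, each given 1 or 2 aggregates. A total of 2 libraries came from recipients given INK128 in the drinking water, at 0.75 μM per g by the labels (the methods of the study state the dose differently, as a concentration of the water), and 2 from untreated controls, numbered replicates 1 and 3. All grafts were collected about 1 month after transplantation. The vessels of such a graft can be made by donor cells and by recipient cells, and counts per gene do not separate them. The labels do not say whether a library holds 1 graft or several, so p-values measure the spread between these libraries.

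Blood vessels are lined by endothelial cells that respond to the VEGF ligands through the receptor tyrosine kinases KDR and FLT1, and to the angiopoietins through TEK. Lymphatic vessels arise mainly from venous endothelium that switches on the transcription factor PROX1. Lymphatic cells carry FLT4, the receptor of VEGFC, and the hyaluronan receptor LYVE1. The ovary builds and removes vessels with each follicle and corpus luteum, and its lymphatics form after its blood vessels.

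The promoters of Flt4, Prox1, Reln and Kdr are shown because these genes had the lower values in INK128-treated rOvaries that are described below. Each is the stretch of 250 bases before a RefSeq transcription start on GRCm38.p6, printed 5′ to 3′ on the strand of the gene. Capitals mark the letters GGAAG, the core that ETS factors such as ERG and FLI1 bind, on either strand (CTTCC on the other).
Flt4, chr11:49609429-49609678, plus strand: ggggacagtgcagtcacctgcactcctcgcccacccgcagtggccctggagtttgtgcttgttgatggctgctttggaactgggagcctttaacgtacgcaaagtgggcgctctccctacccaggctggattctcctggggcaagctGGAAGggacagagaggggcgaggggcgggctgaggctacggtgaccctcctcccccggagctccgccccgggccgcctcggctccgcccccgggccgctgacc
Prox1, chr1:190170828-190171077, minus strand: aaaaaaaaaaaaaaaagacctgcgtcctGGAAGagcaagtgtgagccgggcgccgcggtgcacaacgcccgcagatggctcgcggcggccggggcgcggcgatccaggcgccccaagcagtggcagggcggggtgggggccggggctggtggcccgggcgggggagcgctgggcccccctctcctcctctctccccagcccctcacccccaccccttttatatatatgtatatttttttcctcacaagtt
Reln, chr5:22344706-22344955, minus strand: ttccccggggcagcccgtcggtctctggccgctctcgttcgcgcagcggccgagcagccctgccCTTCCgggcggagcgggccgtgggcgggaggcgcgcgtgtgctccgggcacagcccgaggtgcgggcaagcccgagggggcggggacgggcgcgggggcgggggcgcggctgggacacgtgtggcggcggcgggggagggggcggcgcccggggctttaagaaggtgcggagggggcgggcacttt
Kdr, chr5:75978456-75978705, minus strand: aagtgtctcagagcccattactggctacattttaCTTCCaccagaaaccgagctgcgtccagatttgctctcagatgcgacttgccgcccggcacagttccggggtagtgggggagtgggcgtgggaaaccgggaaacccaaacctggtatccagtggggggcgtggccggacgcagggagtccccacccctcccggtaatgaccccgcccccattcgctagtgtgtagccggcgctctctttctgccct
Each of these 4 stretches held the ETS core 1 time, while 64.1% of the 32851 RefSeq promoters of this length held it at least 1 time. The letters ACAAT, the core that SOX factors bind, were searched on both strands too and were in none of the 4, against 27.7% of all promoters. Prox1 has a second RefSeq start, whose 250 bases held the ETS core 3 times. These are matches of letters only. In all, 23 of the 36 genes had a RefSeq promoter in the table used, and Lyve1 is named without a sequence.

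The INK128 libraries held 19130209 and 23029089 counts and the control libraries 21585292 and 22812603. Levels are given as CPM, counts scaled to a common library size with TMM factors of 0.94 to 1.05, and 3 counts stood for 0.127 to 0.161 CPM. The controls resembled each other less than the INK128-treated rOvaries did. Of the genes tested, 13.8% lay more than 2-fold apart between the controls and 1% between the INK128-treated rOvaries. For the endothelial genes the same was true of 14 and 0 of 36, and 29 of 36 had the higher CPM in control replicate 3. The summed CPM of 11 oocyte markers was 1053 and 778 with INK128, 761 in control replicate 1 and 25.6 in control replicate 3. Control replicate 1 held 1021 counts of 4 Y-linked genes, and the other libraries held 2, 0 and 0. By the methods of the study both the donor gonads and the recipients were female, and the source of these counts was not tested. Terc had 1 count in total, but its RNA has no poly(A) tail and the libraries were made from polyA RNA, so it does not check the genotype of the recipients. Both controls thus stood apart in some way, and results are given without each of them as well.

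Of the 36 genes, 33 had a mean above 10 CPM over the 4 libraries and were tested among 11758 genes. A gene was called when its adjusted p was below 0.05 and its change exceeded 1.5-fold. With edgeR, 4 of the 33 were lower in INK128-treated rOvaries, Lyve1, Reln, Flt4 and Kdr, and 0 were higher. Over all genes tested, 3.19% were called lower and 3.18% higher. Lyve1 and Reln, at 1.93 to 4.03 CPM with INK128, passed the filter only through the controls. When CPM above 10 was required in all 4 libraries, Kdr was called, and Lyve1, Reln and Flt4 were not tested. The 4 adjusted p-values lay close to the threshold, from 0.0464 to 0.0487 (edgeR), and limma voom called 0 of the 11758 genes, with a lowest adjusted p of 0.0599 and 3979 genes at an unadjusted p below 0.05. The remaining 3 genes, Pgf, Prox1 and Stab2, entered a second fit over 17631 genes above a mean of 1 CPM, where 0% of genes were called and the lowest adjusted p was 0.0555 (edgeR). In that fit 5797 genes, 12 of the 36 among them, had an unadjusted p below 0.05. In bulk RNA, fewer endothelial cells and less RNA per cell cannot be told apart.

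Lymphatic markers had the largest differences. LYVE1 binds hyaluronan on lymphatic endothelium and also on some macrophages. Lyve1 (chromosome 7, 110850607 to 110863239, mm10) had 3.54 and 3.59 CPM with INK128 and 60.0 and 70.7 CPM in controls. The INK128-treated rOvaries were nearly identical and far below both controls. Its log2 fold change was −4.19 (SE 0.23, adjusted p = 0.0464, edgeR). Per kilobase of exon, Lyve1 ranked 7 among the 36 genes in controls, at 22.4 CPM per kb, and 31 with INK128, at 1.22 CPM per kb.

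Reelin, a secreted glycoprotein made by lymphatic endothelial cells among other sources, was the other called gene of this group. Reln (chromosome 5, 21884454 to 22344702) had 4.03 and 1.93 CPM with INK128 and 23.9 and 36.5 CPM in controls. The groups did not overlap, and the log2 fold change was −3.34 (SE 0.50, adjusted p = 0.0464, edgeR). Leaving out 1 library at a time gave −3.97 to −2.91 for Reln. An antisense gene, Gm10475, shares 1.04% of the Reln exon bases.

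PROX1 sets lymphatic identity. Prox1 (chromosome 1, 190118035 to 190170714) had 1.34 and 0.69 CPM with INK128, from 25 and 15 counts, and 11.0 and 25.4 CPM in controls, from 248 and 602 counts. Again both INK128-treated rOvaries lay below both controls. Its log2 fold change was −4.11 (SE 0.65), with an adjusted p of 0.0558 in edgeR among genes above 1 CPM, so it was not called in this fit. DESeq2 on the same genes called Prox1, with an adjusted p of 1.04e-07, while calling 13.6% of all genes lower. EdgeR called it over all genes with at least 1 count (adjusted p = 0.00191), but not with exon length offsets (adjusted p = 0.0768), and limma voom did not call it (adjusted p = 0.0989). Without control replicate 1 its log2 fold change was −4.60 and without control replicate 3 −3.39. With 1 INK128 library left out, its adjusted p was 0.431 or 0.472 (edgeR). The antisense gene Prox1os shares 1.59% of its exon bases, and the counting is not stated to use strand.

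Podoplanin, a mucin-type surface protein of lymphatic endothelium that podocytes and mesothelium also make, behaved otherwise. Pdpn had 94.7 and 87.0 CPM with INK128, between the 158 and 58.7 CPM of the controls, and its log2 fold change was −0.25. It had the highest level per kilobase of exon of the 36 genes in both groups, 50.0 CPM per kb with INK128 and 59.7 in controls. Without control replicate 1 its log2 fold change was 0.63, and without control replicate 3 −0.80.

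Stabilins are scavenger receptors of sinusoidal endothelium, lymphatic endothelium and macrophages. Stab1 had 78.3 and 84.6 CPM with INK128 and 92.4 and 123 CPM in controls (log2 fold change −0.41, adjusted p = 0.229, edgeR). Stab2 was low throughout, at 1.29 and 3.04 CPM with INK128 and 2.30 and 6.12 CPM in controls. Its groups overlapped. Both INK128 values of Stab1 lay below both controls. Lyve1 counts were 4.52% and 4.24% of Stab1 counts with INK128 and 64.9% and 57.3% in controls, so the gap was wider in Lyve1 than in Stab1.

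Among the 10 receptors, 2 were called lower. FLT4 (VEGFR3) is the receptor of VEGFC and the third lymphatic gene called. Flt4 (chromosome 11, 49609263 to 49652739) had 9.72 and 11.4 CPM with INK128 and 40.7 and 94.9 CPM in controls. The groups were separate although the controls lay more than 2-fold apart. Its log2 fold change was −2.68 (SE 0.47, adjusted p = 0.0487, edgeR). Without control replicate 1 it was −3.165 and without control replicate 3 −1.945.

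KDR (VEGFR2) is the main signalling receptor for VEGFA on blood endothelium and is also made by lymphatic cells. Kdr (chromosome 5, 75932827 to 75978458) had 56.0 and 50.3 CPM with INK128 and 166 and 142 CPM in controls. The 4 libraries fell into separate pairs, and the log2 fold change was −1.54 (SE 0.18, adjusted p = 0.0464, edgeR). Kdr counts were 51.5% and 36.6% of those of Cdh5, the gene of VE-cadherin, with INK128 and 141% and 75.8% in controls.

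FLT1 (VEGFR1) binds VEGFA, VEGFB and PGF and limits signalling through KDR. Flt1 had 30.5 and 34.0 CPM with INK128 and 45.6 and 55.3 CPM in controls (log2 fold change −0.65, adjusted p = 0.0998, edgeR). With offsets for exon length its log2 fold change was −0.04. The groups of Flt1 did not overlap, and the value near 0 came with the length offsets alone among the alternatives.

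Neuropilins are co-receptors, NRP1 mostly for VEGFA and NRP2 for VEGFC. Nrp2 had 42.2 and 40.8 CPM with INK128, and 53.3 and 135 CPM in controls (log2 fold change −1.18, adjusted p = 0.149, edgeR). Control replicate 3 carried most of that difference, and without it the log2 fold change was −0.36. Nrp1 overlapped between the groups, at 72.2 and 68.4 CPM with INK128 and 68.0 and 100.1 CPM in controls.

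TEK (TIE2) is the angiopoietin receptor and TIE1 its partner. Tek had 32.2 and 28.8 CPM with INK128 and 28.4 and 39.0 CPM in controls. Tie1 had 55.0 and 54.1 CPM against 49.7 and 77.6 CPM. Both overlapped, with log2 fold changes of −0.15 and −0.22, and Tie1 counts were 39.3% to 50.6% of Cdh5 counts in all 4 libraries.

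Endoglin, the co-receptor of BMP9 and BMP10, had close values in all libraries. Eng had 143 and 161 CPM with INK128 and 132 and 140 CPM in controls (log2 fold change 0.16, adjusted p = 0.530, edgeR). ROBO4 is a guidance receptor that stabilises vessels. Robo4 had 29.5 and 26.4 CPM with INK128 and 49.0 and 30.0 CPM in controls. Its second control lay close to the INK128-treated rOvaries.

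The apelin receptor marks venous and sprouting endothelium and is made by other cells too. Aplnr (chromosome 2, 85136225 to 85139923) had 92.8 and 99.0 CPM with INK128 and 33.8 and 57.4 CPM in controls. Both INK128-treated rOvaries lay above both controls, and its log2 fold change was 1.07 (SE 0.30, adjusted p = 0.0819, edgeR), which was not called. DESeq2 called it higher (adjusted p = 0.0161), the only one of the 33 it did, with 13.6% of all genes called higher. DESeq2 called the same 4 genes lower as edgeR, with 15.1% of all genes called lower. Aplnr counts were 85.3% and 72.0% of Cdh5 counts with INK128 and 28.6% and 30.5% in controls.

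**Figure D1:**
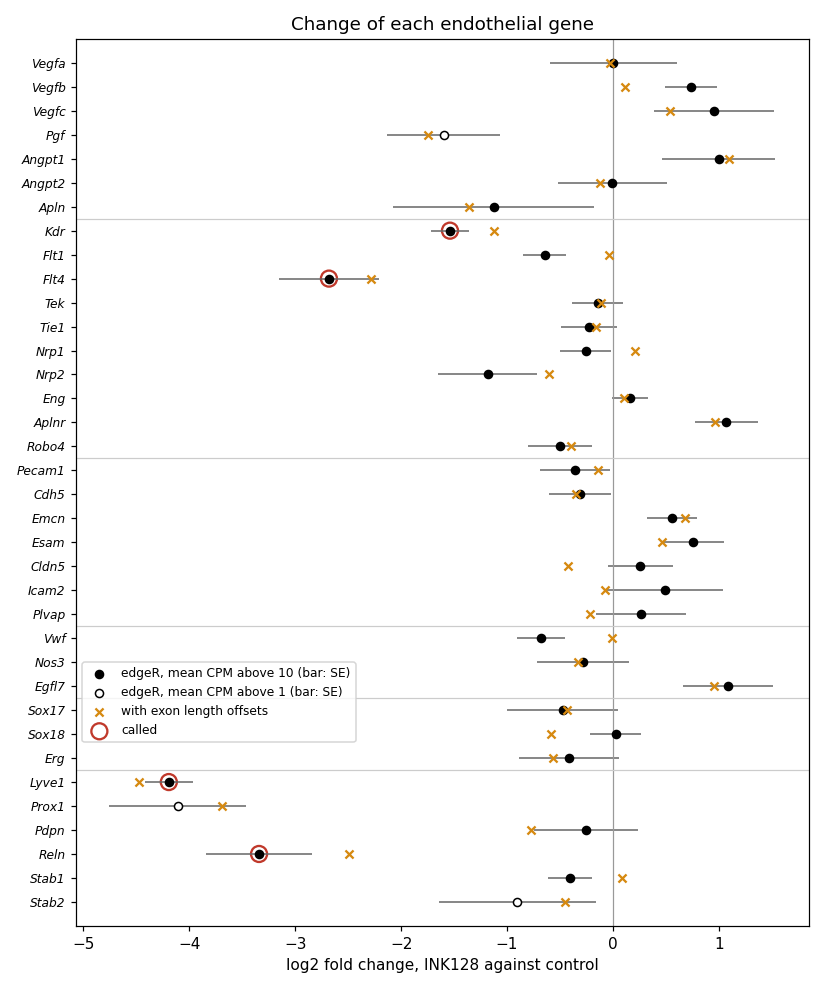
Log2 fold change of each endothelial gene, INK128 against control (x axis), with the SE as a bar; filled points were tested among genes above a mean of 10 CPM and open points among genes above 1 CPM, orange crosses use offsets for exon length, and red rings mark called genes. The 4 ringed genes, Prox1 and Pgf lie below −1.5, and the other genes lie above it.

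None of the 7 ligands was called. VEGFA, the main growth factor of blood vessels, had 40.7 and 56.1 CPM with INK128 and 22.3 and 74.4 CPM in controls. The controls of Vegfa lay on either side of both INK128-treated rOvaries, and its log2 fold change was 0.00 (SE 0.60, adjusted p = 0.998, edgeR). Vegfb, which encodes a ligand of FLT1, had 45 and 65.3 CPM with INK128 and 32.1 and 33.9 CPM in controls (log2 fold change 0.74, adjusted p = 0.111, edgeR), and 0.11 on the log2 scale with length offsets.

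VEGFC drives lymphatic growth through FLT4. Vegfc had 27.9 and 26.9 CPM with INK128 and 6.95 and 21.3 CPM in controls (log2 fold change 0.95, SE 0.56, adjusted p = 0.280, edgeR). Both INK128-treated rOvaries had higher values of Vegfc than the controls, and control replicate 3 lay close to them. The log2 fold change was 0.36 without control replicate 1 and 1.98 without control replicate 3.

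Placental growth factor had the largest difference among the ligands. Pgf (chromosome 12, 85166635 to 85177790) had 1.66 and 2.48 CPM with INK128 and 8.54 and 4.51 CPM in controls (log2 fold change −1.60, SE 0.53, adjusted p = 0.122, edgeR among genes above 1 CPM). Its groups did not overlap.

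Apelin, the ligand of APLNR, had the largest difference among the ligands above 10 CPM. Apln (chromosome X, 48025146 to 48034853) had 15 and 9.52 CPM with INK128 and 6.38 and 47.2 CPM in controls (log2 fold change −1.13, SE 0.95, adjusted p = 0.425, edgeR). Control replicate 3 alone set the sign, and without it the log2 fold change was 0.94. Angpt1, which encodes the agonist of TEK made by mural cells, had 75.7 and 70.9 CPM with INK128 and 18.5 and 54.8 CPM in controls (log2 fold change 1.0, adjusted p = 0.240, edgeR). Angpt1 was at 0.42 without control replicate 1 and at 1.99 without control replicate 3. An antisense gene, Gm17473, shares 14.2% of the exon bases of Angpt1. Angpt2, which encodes a context-dependent antagonist, had 15.7 and 21.5 CPM with INK128, within the 10.5 and 26.9 CPM of the controls.

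The 7 junction and surface proteins had 0 calls in either direction, and 0 in DESeq2. PECAM1 and VE-cadherin join endothelial cells to each other. Pecam1 had 92.5 and 99.1 CPM with INK128 and 86.2 and 159 CPM in controls. Cdh5 had 109 and 138 CPM with INK128 and 118 and 188 CPM in controls. For both genes the INK128 values were near those of control replicate 1 and below control replicate 3, with log2 fold changes of −0.36 and −0.31.

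ESAM, an adhesion molecule of tight junctions, had the largest difference in this group. Esam (chromosome 9, 37528078 to 37538319) had 62.8 and 78.9 CPM with INK128 and 32.3 and 51.4 CPM in controls (log2 fold change 0.76, SE 0.29, adjusted p = 0.142, edgeR). Emcn, which encodes a sialomucin of venous and capillary endothelium, had 48.2 and 55.3 CPM against 29.6 and 40.8 CPM in controls (log2 fold change 0.56). Both had non-overlapping groups, with INK128 above.

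Cldn5, Icam2 and Plvap overlapped between the groups. Claudin-5 seals tight junctions, and Cldn5 had 47.2 and 56.4 CPM with INK128 and 32.5 and 54.1 CPM in controls. Icam2, which encodes a leukocyte adhesion molecule, had 15.8 and 19.8 CPM against 6.68 and 18.6 CPM. PLVAP forms the diaphragms of fenestrated capillaries, and Plvap had 80.1 and 94.9 CPM with INK128 and 101 and 44.3 CPM in controls. All 3 had log2 fold changes from 0.26 to 0.49, and with offsets for exon length from −0.43 to −0.07.

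Of the 3 secreted or vasoactive proteins none was called. EGFL7 is deposited by endothelium and guides tube formation, and its gene hosts miR-126. Egfl7 (chromosome 2, 26580014 to 26593120) had 49.1 and 92.6 CPM with INK128 and 24.8 and 42.1 CPM in controls (log2 fold change 1.09, SE 0.43, adjusted p = 0.147, edgeR). The groups did not overlap but lay close, and 4 other genes share some of its exon bases, up to 7.37% for Gm20532.

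Von Willebrand factor is stored in endothelial cells and platelets. Vwf had 14.6 and 14.1 CPM with INK128 and 22.4 and 23.5 CPM in controls, with little spread in either pair (log2 fold change −0.68, adjusted p = 0.113, edgeR). With length offsets the log2 fold change was −0.01. Endothelial nitric oxide synthase makes the vasodilator nitric oxide, and Nos3 had 11.8 and 16.1 CPM against 11.3 and 22.6 CPM in controls. An antisense gene, Gm15587, shares 25.2% of the Nos3 exon bases.

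None of the 3 transcription factors was called. SOX17 acts in arterial endothelium. Sox17 (chromosome 1, 4490931 to 4497354) had 8.0 and 11.7 CPM with INK128 and 19.4 and 8.01 CPM in controls (log2 fold change −0.48, SE 0.52, adjusted p = 0.535, edgeR), and Gm37587 shares 16.8% of its exon bases. Sox18, whose product switches on Prox1 in the embryo, had 49.4 and 64.5 CPM with INK128 and 63.1 and 48.7 CPM in controls. Erg, which encodes an ETS factor of all endothelium, had 14.2 and 16.3 CPM against 12.0 and 28.6 CPM. All 3 overlapped between the groups.

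Over the 33 genes tested, the median log2 fold change was −0.25, against −0.03 for all genes tested. Their groups did not overlap in 9 genes with INK128 below and in 8 with INK128 above, while over all genes 34% and 34.5% did not overlap in those directions. In both directions the share of endothelial genes was below that of all genes. The medians per role were 0.37 for ligands, −0.38 for receptors, 0.27 for junction or surface proteins, −0.28 for secreted or vasoactive proteins, −0.41 for transcription factors and −1.87 for lymphatic or scavenger markers. Exon length bore on these values: with length offsets the median of the 33 genes was −0.14, and the 4 called genes kept their direction, at −4.47 for Lyve1, −2.49 for Reln, −2.29 for Flt4 and −1.12 for Kdr, with adjusted p-values of 0.0737 to 0.0882 (edgeR), so that none was called. The choice of control mattered too. The median of the 33 genes was −0.51 without control replicate 1 and 0.13 without control replicate 3.

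**Figure D2:**
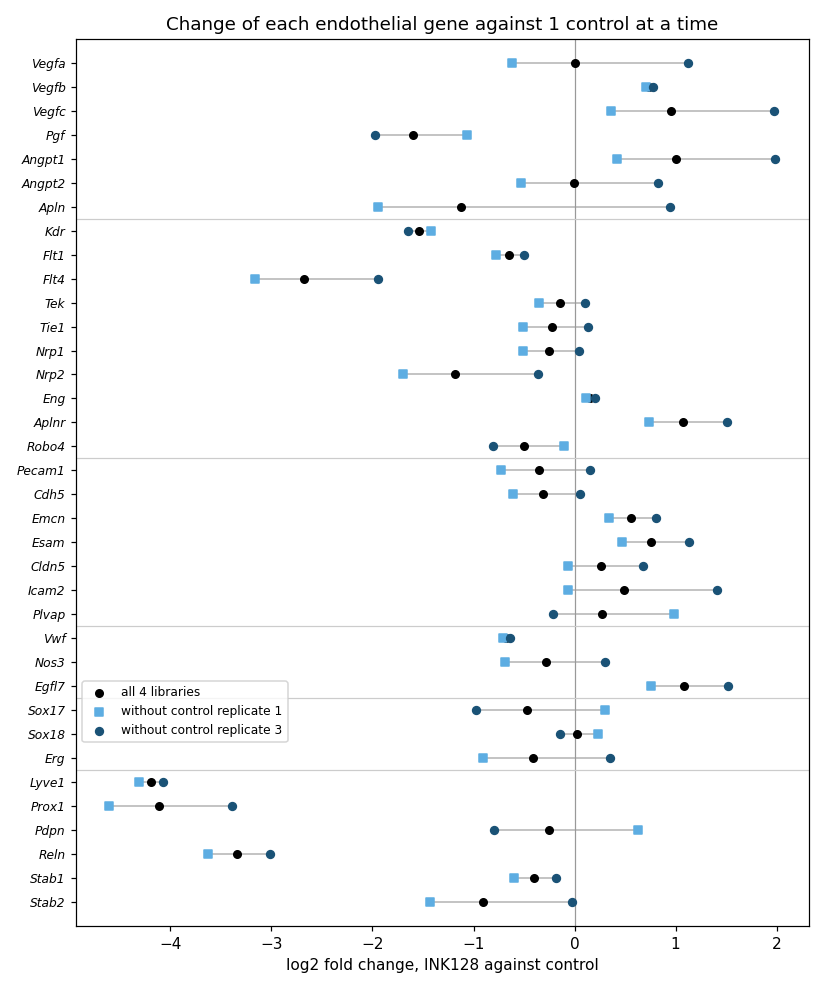
Log2 fold change of each endothelial gene, INK128 against control (x axis), with all 4 libraries (black), without control replicate 1 (light blue squares) and without control replicate 3 (dark blue points); a line joins the values of a gene. Lyve1, Reln, Flt4, Kdr and Prox1 stay below −1 whichever control is left out, whereas the line of genes such as Apln, Vegfa, Pecam1 and Pdpn crosses 0.

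The lymphatic and blood markers were set against each other inside each library, which does not depend on the scaling between libraries. For lymphatic endothelium, the 6 genes Prox1, Flt4, Lyve1, Pdpn, Reln and Mmrn1 were summed. MMRN1 is a secreted multimerin of lymphatic endothelium and platelets. Mmrn1 is not among the 36 genes and had 1 and 0 counts with INK128 and 1009 and 2878 counts in controls, where it reached 44.7 and 121 CPM. For blood endothelium, the 7 genes Pecam1, Cdh5, Kdr, Tie1, Emcn, Esam and Cldn5 were summed. Kdr is also made by lymphatic cells, and none of the 7 was shown here to be particular to blood vessels.

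The lymphatic sum was 113 and 105 CPM with INK128 and 338 and 408 CPM in controls. Pdpn, whose groups overlapped, gave 94.7 and 87.0 CPM of the sums with INK128 and 158 and 58.7 CPM of those in controls. The blood endothelial sum was 470.4 and 532 CPM with INK128 and 515 and 713 CPM in controls, with the groups overlapping. Summing instead the 6 lymphatic or scavenger markers of the set, with Stab1 and Stab2 in place of Flt4 and Mmrn1, gave 183 and 181 CPM with INK128 and 348 and 321 CPM in controls. Both marker sums differed in the same direction, by less with the stabilins. The sum over the 6 genes named first was 24.1% and 19.7% of the blood sum with INK128 and 65.7% and 57.1% in controls. With 2 libraries per group an exact permutation test of a single value cannot give a two-sided p below 0.333, so the ratio is given as a description. Lyve1, Reln, Flt4 and Mmrn1, all called lower, stand in the lymphatic sum, and Kdr, also called lower, in the blood sum. These lists were chosen with earlier results of these data known. The ratio is thus not independent of those calls.

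Markers of other cells are given beside the lymphatic genes. Over all genes tested, 34% had both INK128 values below both controls, 3.19% were called lower with edgeR and 15.1% with DESeq2. All 14 tested kidney markers of 16 had both INK128 values below both controls, 7 were called lower with edgeR and 13 with DESeq2, and the summed CPM of the 16 was 72.0 and 183 with INK128 and 751 and 1629 in controls. The largest kidney differences were in Umod, Slc34a1 and Lrp2, at −6.08, −4.67 and −4.37 on the log2 scale. All 10 tested macrophage markers of 14 had negative log2 fold changes, with a median of −0.92. In 8 of them both INK128 values lay below both controls, 1, Mpeg1, was called lower with edgeR and 7 with DESeq2. The summed CPM of the 14 was 370 and 318 with INK128 and 581 and 654 in controls. Of 9 mesothelial markers 4 were tested, 1, Gpm6a, was called lower with edgeR and 3 with DESeq2, and the median log2 fold change was −2.04. The fourth, Cldn15, named after its values were seen, had both INK128 values above both controls, at 0.57 on the log2 scale. The sum of the 9 was 90.3 and 76.0 CPM with INK128 and 405 and 156 CPM in controls. The part of kidney tissue, macrophages or mesothelium in the lymphatic result was not tested.

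**Figure D3:**
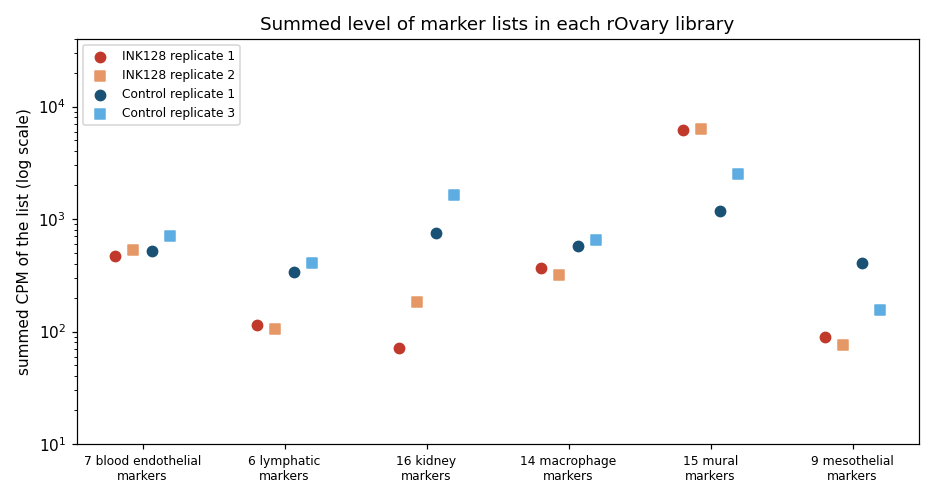
Summed CPM (log axis) of marker lists in each of the 4 libraries, for blood endothelium, lymphatic endothelium, kidney, macrophages, mural cells (pericytes and smooth muscle) and mesothelium. The lymphatic points lie at 113 and 105 CPM with INK128 and at 338 and 408 CPM in controls, the kidney points are split the same way, and the blood endothelial points are mixed.

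Other endothelial and pathway genes are given by list, and their counts of calls are to be read against the 3.19% lower and 3.18% higher of all genes with edgeR and the 15.1% and 13.6% with DESeq2. Of 38 further endothelial genes 32 were tested, 1 was called higher and 0 lower with edgeR, and 4 higher and 6 lower with DESeq2, with a median log2 fold change of 0.04. The gene called with edgeR was Lyl1, which encodes a helix-loop-helix factor of blood and endothelial cells (log2 fold change 1.78, SE 0.29, adjusted p = 0.0475, edgeR). Podxl and Aqp1, both made by kidney cells as well, had log2 fold changes of −2.14 and −1.74 and were called lower with DESeq2 but not with edgeR. Among 7 tested genes of a further lymphatic list, 1, Mmrn1, was called lower with edgeR and 5 with DESeq2, and 0 higher with either tool. All 7 had negative log2 fold changes, including −1.58 for Thy1 and −1.20 for Ackr4, which DESeq2 called and edgeR did not. Over all 11758 genes tested, 6038 were negative. Gja1, named after its values were seen, was at −0.02, and its groups overlapped. Mmrn1 passed the filter of 10 CPM only through the controls.

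Of 13 tested arterial and Notch genes, 1 was called lower with edgeR, and 2 lower and 1 higher with DESeq2. Notch1, a receptor in arterial specification and in many other cells, was called lower with both tools, with 19.4 and 22.0 CPM against 85.9 and 56.2 CPM (log2 fold change −1.78, SE 0.28, adjusted p = 0.0464, edgeR). Unc5b and Efnb2 had log2 fold changes of −1.85 and −1.68 and were not called with edgeR, and DESeq2 called Efnb2 lower. Of 4 tested genes of a venous list, Nr2f2, which encodes COUP-TFII, a factor of veins and of ovarian stroma, was the only call, higher with both tools, with 250.2 and 237 CPM against 113 and 122 CPM (log2 fold change 1.05, SE 0.17, adjusted p = 0.0475, edgeR). That list also held Vegfd, which encodes a ligand of FLT4 and is not a venous marker. Vegfd had 13.9 and 12.3 CPM with INK128 and 9.25 and 15.2 CPM in controls. COUP-TFII acts with SOX18 upstream of PROX1 in the embryo, while Prox1 itself had the low values given above.

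Of 16 tested partners of the angiopoietin, BMP and apelin pathways, 1 was called higher with edgeR, and 1 higher and 1 lower with DESeq2. The higher call was Angptl4, an angiopoietin-like inhibitor of lipoprotein lipase, with 240.3 and 241 CPM against 50.1 and 54.7 CPM (log2 fold change 2.20, SE 0.17, adjusted p = 0.0464, edgeR). Of 13 tested inhibitors of angiogenesis, 1 was called lower with edgeR, and 2 lower and 2 higher with DESeq2. Vasohibin-1 is made by endothelium itself, and Vash1 had the largest difference, −2.90 on the log2 scale (adjusted p = 0.0516, edgeR), called with DESeq2 only. The call with edgeR was Timp3, an inhibitor of metalloproteinases that also blocks KDR (log2 fold change −1.78, adjusted p = 0.0480, edgeR). Of 21 tested hypoxia response genes 1 was called in each direction with edgeR, and 6 lower and 1 higher with DESeq2. Ndrg1 was lower, at 25.4 and 32.2 CPM against 174 and 222 CPM, and Higd1a was higher. The median of the hypoxia list was −0.21, and Vegfa, a classical hypoxia target, had the overlapping values given above.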

How the data were processed

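RNA-seq of rOvaries was analysed in 4 libraries, 2 INK128-treated and 2 control, grouped by the labels. According to the methods and the processing notes, reads were trimmed with Trimmomatic, aligned to mm10 with HISAT2 and assigned to genes with featureCounts. The authors deposited raw counts per gene symbol, without normalization or pooling. CPM were computed with TMM factors. Tests were edgeR 4.0.16 quasi-likelihood F-tests in R 4.3.3, with Benjamini-Hochberg adjustment over all genes above a mean of 10 CPM, or of 1 CPM for low genes. The SE is the absolute log2 fold change divided by the square root of F. DESeq2 1.42.0, limma voom 3.58.1, other scalings and filters, offsets for exon length per library (lowess, 99.5% of tested genes with a length) and leaving out each library were alternatives. The fits were tested on simulated data. Positions and exon lengths are those of GENCODE release M21. The floor of 3 counts covers counting error only, whereas the SE also holds the spread between libraries. The genes and lists were chosen with earlier results of these data known. Every gene of the set is described, with full statistics if called or if it had the largest change in a role without a call. Of other lists at most 3 genes with the largest change are named, plus Mmrn1. Higd1a was named after its values were seen because it was 1 of 2 calls in its list. The same holds for a few genes of the further lymphatic, mesothelial, pericyte and blood cell lists, marked as such. The strand setting of the counting is not given in the sources used here.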

Additional observations from a re-analysis of the deposited data

How the results depend on the processing

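The 4 genes called lower numbered 0 with limma voom, 1 with CPM above 10 in all 4 libraries (where Lyve1, Reln and Flt4 drop out of the test), 0 with a mean CPM above 1 and 0 with exon length offsets, and 5 with at least 1 count and 5 at an adjusted p below 0.1. Genes called higher, 0 with edgeR, numbered 1 with DESeq2, 1 with at least 1 count and 1 at an adjusted p below 0.1. The share of all genes called was not counted with at least 1 count, with CPM above 10 in all 4 libraries or at an adjusted p below 0.1. These counts therefore cannot be read against all genes. Leaving out 1 library at a time gave 0 to 13 genes called lower and 0 to 11 called higher. Without either INK128 library no gene of the whole table was called with edgeR (lowest adjusted p 0.381). Without control replicate 1 there were 13 lower and 4 higher, and without control replicate 3 there were 7 lower and 11 higher, beside 2723 lower and 2664 higher, and 2518 lower and 2493 higher, over all genes. These fits leave 1 library in a group, which is assumed to vary like the other pair. Lyve1, Reln, Flt4 and Kdr kept a negative log2 fold change in every alternative in which they were tested. Scaling by library totals moved the median of all genes to −0.15. Of 455 values of single genes recomputed, 368 kept their direction and side of the threshold, 20 lost a call, 32 gained one and 35 changed sign.

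The changes of sign were in genes not called with all 4 libraries, and their cause was not tested. Of these, Vegfa and Pdpn passed the adjusted p of 0.05 in opposite directions with 1 control left out (edgeR): without control replicate 1 Vegfa was −0.62 (adjusted p = 0.0301) and Pdpn 0.63 (0.0149), and without control replicate 3 Vegfa was 1.12 (0.00283) and Pdpn −0.80 (0.00417). Angpt2 passed it without control replicate 3 (0.83, adjusted p = 0.039). Vegfa was −0.0099 with DESeq2, −0.0098 with relative log expression factors, −0.12 with library totals, −0.013 with CPM above 10 in all libraries and −0.025 with length offsets. Angpt2 was 0.13 with voom, 0.0028 without ribosomal protein genes in the scaling, 0.045 above a mean CPM of 1 and 0.035 with at least 1 count. Sox18 was −0.10 with library totals. With length offsets Nrp1 was 0.21, Cldn5 −0.43, Icam2 −0.073, Plvap −0.22, Sox18 −0.58 and Stab1 0.086. Leaving out 1 library at a time gave Vegfa −0.62 to 1.12, Angpt2 −0.53 to 0.83, Apln −1.95 to 0.94, Tek −0.36 to 0.10, Tie1 −0.51 to 0.13, Nrp1 −0.51 to 0.048, Pecam1 −0.73 to 0.15, Cdh5 −0.61 to 0.058, Cldn5 −0.063 to 0.67, Icam2 −0.067 to 1.41, Plvap −0.21 to 0.98, Nos3 −0.69 to 0.30, Sox17 −0.97 to 0.30, Sox18 −0.19 to 0.23, Erg −0.91 to 0.35, Pdpn −0.80 to 0.63. Prox1 ran from −4.66 to −3.39, Pgf from −1.98 to −1.06 and Stab2 from −1.66 to −0.03. No paired analysis was possible because the groups share only replicate number 1. With at most 3 counts, such as Mmrn1 with INK128, no fold is given.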

Other observations

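Of 15 pericyte and smooth muscle markers, all tested, 2 were called higher with INK128 and 0 lower with edgeR, and 7 higher and 0 lower with DESeq2, against 3.18% and 13.6% of all genes called higher. The list summed to 6216 and 6351 CPM with INK128 and to 1178 and 2511 CPM in controls. Acta2, smooth muscle actin, had 2559 and 2386 CPM against 308 and 612 CPM (log2 fold change 2.43, SE 0.39, adjusted p = 0.0464, edgeR), and Cnn1, calponin, had 179 and 211 CPM against 25.5 and 49.5 CPM (log2 fold change 2.38, SE 0.37, adjusted p = 0.0464, edgeR). Tagln, transgelin, had a log2 fold change of 2.34 and was called with DESeq2 only. The pericyte markers Pdgfrb, Rgs5, Notch3, Kcnj8 and Abcc9, named after their values were seen, overlapped between the groups, with log2 fold changes of 0.14, 0.09, −0.88, 0.63 and −0.40. Cspg4, another pericyte marker, did not overlap, at 35.2 and 32.5 CPM with INK128 and 11.3 and 26.2 CPM in controls (log2 fold change 0.85), and none of these 6 was called with edgeR or DESeq2. Smooth muscle of the graft stroma and of vessels cannot be told apart in these counts.

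Of 8 erythrocyte markers 2, and of 8 platelet and megakaryocyte markers 1, were above a mean of 10 CPM and tested, and 0 were called with edgeR or DESeq2. Among genes above 1 CPM, where edgeR called 0, DESeq2 called the platelet gene Gp1bb higher (adjusted p = 0.00687) and the erythrocyte gene Slc4a1 lower (adjusted p = 0.000164), both named after their values were seen. The 8 erythrocyte markers summed to 99.2 and 92.2 CPM with INK128 and to 27.0 and 60.5 CPM in controls, and the 8 platelet and megakaryocyte markers to 38.9 and 35.2 CPM against 24.9 and 15.3 CPM. The 9 luteal and steroidogenic markers summed to 4292 and 5486 CPM with INK128, to 1005 CPM in control replicate 1 and to 12780 CPM in control replicate 3. The 9 granulosa markers summed to 6231 and 8126 CPM with INK128 and to 2949 and 6525 CPM in controls, and the 9 stromal fibroblast markers to 14810 and 13020 CPM against 11660 and 11440 CPM. Of 26 cytosolic ribosomal protein genes, 24 were called higher with edgeR and 26 with DESeq2, against 3.18% and 13.6% of all genes.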
